A study of Mus musculus with 8 samples.

Results

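The 10 genes described here encode the subunits of the transcription factor NF-κB and the inhibitors that hold it in check. They were chosen by name, with earlier results of these data known. The subunit genes are Rel, Rela, Relb, Nfkb1 and Nfkb2. The inhibitor genes are Nfkbia, Nfkbib, Nfkbid and Nfkbie, together with the feedback regulator Tnfaip3. All 10 were listed in every library, among 12133 genes listed in vitro and 12665 in vivo, and all 10 passed the filter on low values in both systems. RNA sequencing compared mouse thymocytes in 4 groups of 2 libraries. In vitro, Bcl6fl/fl Cd4cre (KO) and Bcl6fl/fl (WT) double-positive thymocytes, which carry both CD4 and CD8, were stimulated for 24 h with anti-CD3 and anti-CD28 at 8 μg/ml each, and cells that had lost both coreceptors were then sorted. In vivo, KO and WT thymocytes with neither coreceptor but with CD5 and the T cell receptor β chain were sorted directly, without culture. Every group carries the loxP-flanked Bcl6 alleles, and Cre under the Cd4 promoter first acts as coreceptors appear, so earlier stages keep Bcl6. The sources used here state no ages, strains or numbers of animals.

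NF-κB factors are dimers that wait in the cytoplasm of resting cells, bound to inhibitors of the IκB family. In T cells, antigen receptor and CD28 signals activate a kinase complex, IKK, which marks the inhibitors for destruction and frees dimers of RELA, c-REL (from Rel) and the mature product of Nfkb1. A slower non-canonical arm, driven by members of the TNF receptor family, processes the Nfkb2 precursor and releases it with RELB. Several genes of the system, Nfkbia, Nfkbie, Nfkb2, Relb and Tnfaip3 among them, are themselves NF-κB targets, which closes feedback loops. In the thymus the pathway is known for its part in the selection and survival of self-reactive, agonist-selected T cells.

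The deleted gene does not check the labels. Bcl6 had 64.6 and 61.0 FPKM (fragment counts scaled to gene length and library total) in the in vitro libraries labelled KO, against 24.9 and 21.9 FPKM in those labelled WT, the opposite of the label (log2 fold change 1.45, SE 0.09; adjusted p by edgeR = 1.53e-06). In vivo it had 8.81 and 14.4 FPKM in the libraries labelled KO, against 11.5 and 13.9 FPKM in those labelled WT. Counts per gene pool the deleted and the remaining exons, so groups are called by their labels and every direction is that of the KO-labelled libraries. Total counts ran from 14754440 to 23975636 per library, and the 10 genes had 390 to 15286 counts each in every library. The T cell markers Cd3d, Cd3e, Cd3g, Cd5 and Lck all had 62.5 FPKM or more in every library of both systems. The other 2 listed T cell markers, Cd247 and Thy1, were lower in vitro. Of the 7 listed T cell markers, 4 rose in vitro under the KO label and 1 fell (adjusted p by edgeR under 0.05). Besides Cd247 and Thy1, Lck (log2 fold change 0.41, SE 0.10) and Cd3d (0.25, SE 0.09) rose, while Cd3e (-0.26, SE 0.09) fell. Cd247 had 26.9 and 26.1 FPKM in libraries labelled KO, against 15.8 and 17.5 FPKM in those labelled WT. Thy1 had 20.9 and 18 FPKM in libraries labelled KO, against 3.06 and 4.56 FPKM in those labelled WT (log2 fold change 2.40, SE 0.16; adjusted p by edgeR = 1.78e-06). The part of these marker differences in the values below was not tested. The labels do not say that replicates are separate animals or cultures, so the p-values measure the spread between these libraries only.

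In vitro, 8 of the 10 genes fell in the libraries labelled KO and none rose. The largest falls were in Nfkb2 and Rel, to 0.563 and 0.583 of the WT-labelled level, and the smallest was in Nfkbib, to 0.787. Rela and Tnfaip3 did not pass the test. By role, 4 of 5 subunits and 4 of 5 inhibitors fell. The median log2 fold change of the 10 was -0.44, against -0.003 over the 9658 genes tested, of which 17.7% fell and 20.1% rose (quasi-likelihood test of edgeR; p adjusted by Benjamini-Hochberg over all genes tested, threshold 0.05). Both KO-labelled libraries lay below both WT-labelled libraries at 8 of the 10 genes, as they did at 38.6% of all genes tested.

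**Figure D1:**
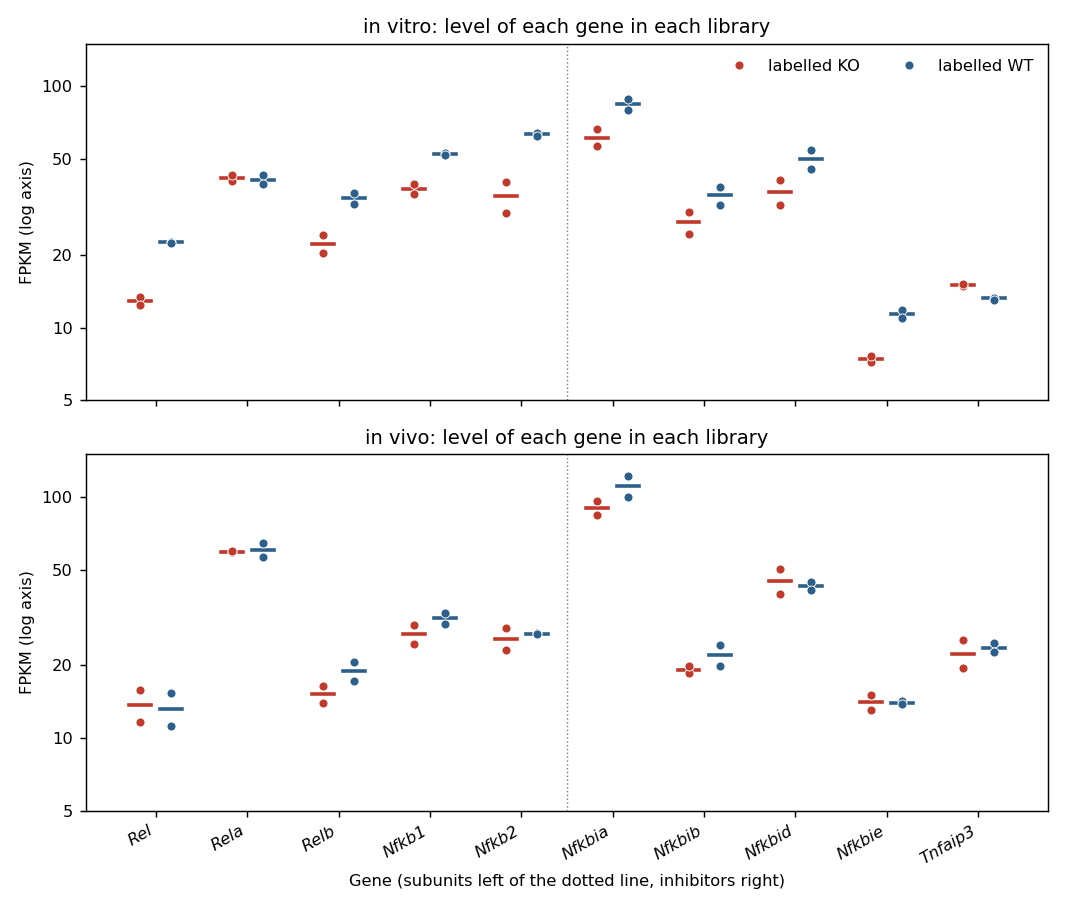
FPKM of each of the 10 genes on a log axis, in vitro (top) and in vivo (bottom), with 1 point per library and a bar at the mean of each group of 2. In vitro the points labelled KO sit below those labelled WT for every gene but Rela and Tnfaip3, and in vivo most pairs of groups overlap.

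Among the subunits, Rel encodes c-REL, the NF-κB protein most tied to activated lymphocytes. It had 13.4 and 12.4 FPKM in the in vitro libraries labelled KO, against 22.7 and 22.5 FPKM in those labelled WT. The groups were far apart and each was tight, and the log2 fold change was -0.78 (SE 0.08, n = 2 per group; adjusted p by edgeR = 3.65e-05). Nfkb2, the precursor of the non-canonical arm, had 29.8 and 40.1 FPKM in libraries labelled KO, against 64.3 and 62.4 FPKM in those labelled WT. Here the KO-labelled libraries differed from each other by more than the WT-labelled ones, but both were well below them (log2 fold change -0.83, SE 0.12; adjusted p by edgeR = 0.000337). Relb, which encodes the partner of the Nfkb2 product, had 20.3 and 24.3 FPKM under the KO label, against 36.1 and 32.5 FPKM under the WT label. Its groups did not overlap either (log2 fold change -0.59, SE 0.10; adjusted p by edgeR = 0.000892). Nfkb1, the precursor of the canonical partner of RELA, had 35.7 and 39.4 FPKM in libraries labelled KO, against 52.8 and 52.0 FPKM in those labelled WT. It fell by 0.45 on the log2 scale (SE 0.09; adjusted p by edgeR = 0.00325), less than its non-canonical counterpart. Rela, which encodes the main activating subunit, had 40.6 and 43.0 FPKM in libraries labelled KO, against 42.9 and 39.3 FPKM in those labelled WT. Its groups overlapped, with a log2 fold change of 0.05 (SE 0.08; adjusted p by edgeR = 0.671).

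Among the inhibitors, Nfkbia encodes IκBα, the classical inhibitor that is destroyed and resynthesised on each activation. It had 56.4 and 66.3 FPKM in the in vitro libraries labelled KO, against 89.0 and 79.7 FPKM in those labelled WT. Both KO-labelled libraries were below both WT-labelled ones, and the log2 fold change was -0.43 (SE 0.10; adjusted p by edgeR = 0.0051). Nfkbie encodes IκBε, a later-acting inhibitor that holds RELA and c-REL dimers. At 7.22 and 7.62 FPKM in libraries labelled KO, against 11.8 and 11 FPKM in those labelled WT, it was the scarcest of the 10 and fell by 0.59 (SE 0.10; adjusted p by edgeR = 0.000964). Nfkbid encodes IκBNS, a nuclear member of the family that acts on NF-κB already bound to DNA. It had 32.2 and 40.9 FPKM in libraries labelled KO, against 54.3 and 45.6 FPKM in those labelled WT (log2 fold change -0.43, SE 0.12; adjusted p by edgeR = 0.0159). Nfkbib, which encodes IκBβ, had 24.5 and 30 FPKM in libraries labelled KO, against 38.3 and 32.3 FPKM in those labelled WT (log2 fold change -0.35, SE 0.12; adjusted p by edgeR = 0.0351). In both genes the nearest libraries of the groups, KO replicate 2 and WT replicate 2, lay closer together than the libraries within either group did. Both calls were lost without WT replicate 1 (adjusted p by edgeR = 0.0737 for Nfkbid and 0.234 for Nfkbib) and without KO replicate 1 (0.105 for Nfkbid and 0.192 for Nfkbib). Tnfaip3 encodes a ubiquitin-editing enzyme that ends NF-κB signalling, and its fold change was above 0. It had 14.9 and 15.1 FPKM in libraries labelled KO, against 13.3 and 13 FPKM in those labelled WT. The groups did not overlap, but the difference of 0.21 (SE 0.08) missed the threshold over all genes (adjusted p by edgeR = 0.0537).

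Sequence around the starts of these genes is shown because most of them fell together in vitro and several are NF-κB targets; Rela, which did not pass, is included for comparison. In each of the runs below, from RefSeq on GRCm38.p6, capitals mark the κB motif, the sequence NF-κB dimers bind, found on either strand. Overlapping matches are merged. The first 4 are the parts of the 250 bases before the start that lie outside annotated exons, and the last 3 are 30-base windows round single motifs.
Rel, chr11:23770971-23771219, minus strand: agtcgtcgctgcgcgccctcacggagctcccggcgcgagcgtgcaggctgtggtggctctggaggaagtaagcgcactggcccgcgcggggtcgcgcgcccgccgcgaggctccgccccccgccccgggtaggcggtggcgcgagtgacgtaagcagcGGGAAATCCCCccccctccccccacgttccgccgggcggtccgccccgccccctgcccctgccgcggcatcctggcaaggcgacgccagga
Nfkbia, chr12:55492648-55492897, minus strand: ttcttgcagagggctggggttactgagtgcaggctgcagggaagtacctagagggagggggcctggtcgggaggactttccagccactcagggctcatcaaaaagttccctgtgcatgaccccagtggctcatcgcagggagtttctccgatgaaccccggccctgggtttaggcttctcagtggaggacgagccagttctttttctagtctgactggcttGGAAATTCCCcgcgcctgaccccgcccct
Nfkbie, chr17:45555450-45555699, plus strand: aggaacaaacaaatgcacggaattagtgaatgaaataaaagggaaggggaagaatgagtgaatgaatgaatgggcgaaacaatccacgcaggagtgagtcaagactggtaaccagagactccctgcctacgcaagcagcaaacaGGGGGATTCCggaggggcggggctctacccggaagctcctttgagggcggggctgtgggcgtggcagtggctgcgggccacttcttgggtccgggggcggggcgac
Rela, chr19:5637291-5637482, plus strand: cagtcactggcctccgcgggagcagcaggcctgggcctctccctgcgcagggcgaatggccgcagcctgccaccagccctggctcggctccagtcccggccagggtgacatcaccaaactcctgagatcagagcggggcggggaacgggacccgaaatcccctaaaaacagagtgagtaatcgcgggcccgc
Nfkb2, chr19:46304689-46304718, plus strand: gatcgtcacGGGAATTCCCCccctcggggg
Tnfaip3, chr10:19015516-19015545, minus strand: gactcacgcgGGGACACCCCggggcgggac
Tnfaip3, chr10:19015411-19015440, minus strand: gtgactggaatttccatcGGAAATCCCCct
The motif was searched in the 250 bases before every RefSeq start. It was present at 7.25% of 32851 starts. Of the 8 members with an entry, 5 had it at their most upstream RefSeq start, namely Rel, Nfkb2, Nfkbia, Nfkbie and Tnfaip3. In the GENCODE annotation Nfkb2, Tnfaip3, Nfkbib and Rela begin upstream of these starts. The Nfkb2 and Tnfaip3 sites shown therefore lie within the annotated genes. Nfkbid had it only at the second of its 3 starts, while Rela and Nfkbib had no match in this window. Nfkb2 had a match at each of its 3 starts, and Tnfaip3 had 2 at the first of its 2 starts. The genes with the motif thus included 5 that fell in vitro and Tnfaip3, which did not pass, and those without it included Nfkbib, which fell. A match is a description of the letters and does not show that a factor binds. The BCL6 motif TTCCTNGAA, searched on both strands, was present at 1.31% of starts and at 1 of the 13 starts of these genes, the first start of Nfkbid.

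**Figure D2:**
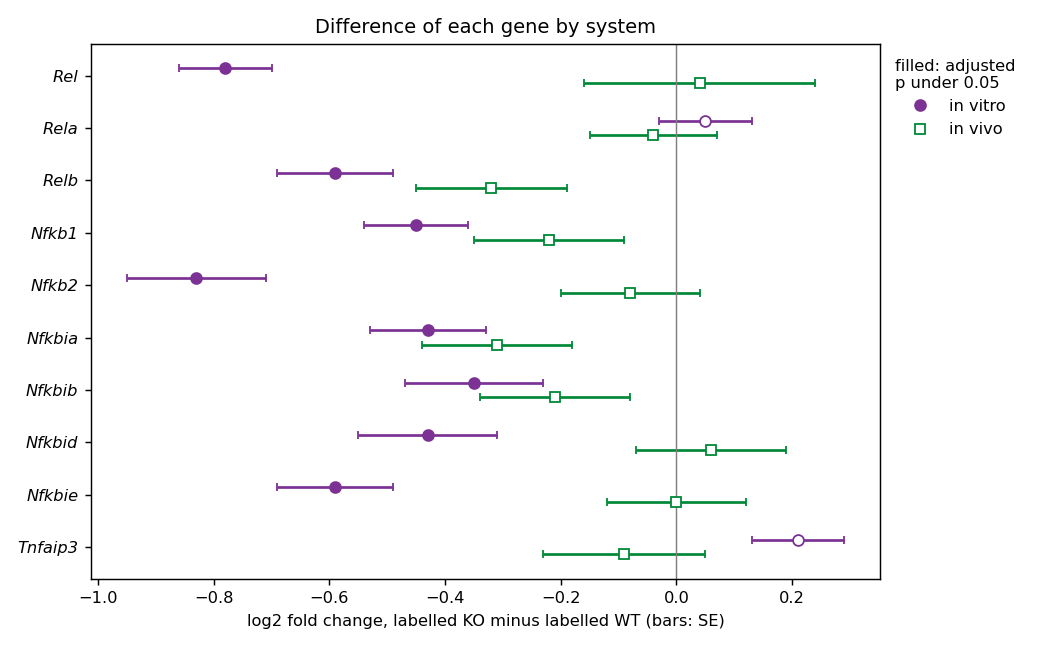
log2 fold change of each gene, KO-labelled minus WT-labelled, with its SE as bars (n = 2 per group), in vitro (circles) and in vivo (squares). Filled symbols passed an adjusted p under 0.05, which 8 genes did in vitro and none did in vivo, and the in vivo square lies nearer to 0 than the in vitro circle for all 10 genes.

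In vivo, none of the 10 genes passed the test, and the smallest adjusted p was 0.358 (edgeR). Of 10227 genes tested there, 1.1% passed in either direction. At an unadjusted p under 0.05 none of the 10 passed either, against 1445 of the 10227 genes tested, and DESeq2 and limma on log2(FPKM + 1) also gave 0. Fold changes were below 0 for 8 of the 10, against 51% of all genes tested, with a median log2 fold change of -0.08. Both libraries labelled KO lay below both labelled WT at 3 of the 10 genes, Relb, Nfkb1 and Nfkbia, as they did at 21.4% of all genes tested. Relb had 14.0 and 16.5 FPKM under the KO label, against 20.6 and 17.2 FPKM under the WT label (log2 fold change -0.32, SE 0.13; adjusted p by edgeR = 0.358). Nfkbia had 84.2 and 96.1 FPKM in libraries labelled KO, against 122 and 100 FPKM in those labelled WT (log2 fold change -0.31, SE 0.13; adjusted p by edgeR = 0.361). For both, KO replicate 2 and WT replicate 2 lay closer together than the WT-labelled libraries did. Nfkb1 had 24.5 and 29.5 FPKM in libraries labelled KO, against 29.7 and 33.0 FPKM in those labelled WT, so that KO replicate 2 and WT replicate 1 were nearly equal (log2 fold change -0.22, SE 0.13).

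Of the 4 genes that fell most in vitro, Relb is described above and the others had fold changes near 0 in vivo. Nfkb2 had 23.1 and 28.5 FPKM in the in vivo libraries labelled KO, against 27.2 and 26.9 FPKM in those labelled WT, a log2 fold change of -0.08 (SE 0.12). Rel had 11.6 and 15.8 FPKM in libraries labelled KO, against 11.2 and 15.3 FPKM in those labelled WT. In each group the library numbered 2 was the higher, so the spread within groups exceeded the difference between them (0.04, SE 0.20). Cd4, the coreceptor gene of cells sorted as lacking its protein, also differed between these libraries, with 22.8 and 78.4 FPKM under the KO label, against 26.8 and 55 FPKM under the WT label. Its part in the spread of Rel was not tested. Nfkbie had 15.1 and 13.1 FPKM under the KO label, against 14.2 and 13.8 FPKM under the WT label, and its groups overlapped completely (0.00, SE 0.12). Nfkbid, at 39.4 and 50.1 FPKM in libraries labelled KO, spanned the WT-labelled libraries at 44.5 and 41.0 FPKM (0.06, SE 0.13). Of the others, Nfkbib had a log2 fold change of -0.21 (SE 0.13), Tnfaip3 of -0.09 (SE 0.14) and Rela of -0.04 (SE 0.11). The SE was 0.11 to 0.20 in vivo, against 0.08 to 0.12 in vitro, and the fold change of Relb in vivo, close in size to that of Nfkbib in vitro, did not pass.

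Markers of other cells differed between the in vivo libraries, some higher and some lower under the KO label, and their part in these values was not tested. Of 14 myeloid and dendritic markers, 11 were listed in vivo, 6 were tested and none passed. Their summed level was 345 and 173 FPKM in libraries labelled KO, against 153 and 81.0 FPKM in those labelled WT, of which Fcer1g alone made up 187 and 146 FPKM, against 110 and 64.5 FPKM. Lyz2, a macrophage and granulocyte enzyme, stood out in KO replicate 1 at 109 FPKM, against 15.7 FPKM in KO replicate 2 and 25.6 and 10.7 FPKM in the WT-labelled libraries. Besides Lyz2, Csf1r, Itgax and Tyrobp were lower in KO replicate 2 than in WT replicate 1, so these markers overlapped between the groups. S100a8 was listed at 0 in WT replicate 2. The 8 B cell markers, of which 5 were tested and none passed, summed to 28.2 and 20.8 FPKM under the KO label, against 16.1 and 5.05 FPKM under the WT label, with none at 0. Regulatory T markers summed to 47.1 and 74.4 FPKM in libraries labelled KO, against 75.7 and 134 FPKM in those labelled WT. Ikzf2 alone made up 28 and 32.7 FPKM under the KO label, against 48.9 and 82.5 FPKM under the WT label. Foxp3 overlapped between the groups, at 3.36 and 14.1 FPKM, against 8.12 and 17.3 FPKM. Il2ra went the other way (log2 fold change 0.33, SE 0.23), and none of the 6 tested passed. Early double-negative thymocyte markers summed to 25 and 18.7 FPKM under the KO label, against 26 and 37.8 FPKM under the WT label. In that list Kit, the receptor of early progenitors, fell, with 3.61 and 3.7 FPKM in libraries labelled KO, against 10.7 and 19.5 FPKM in those labelled WT (log2 fold change -2.05, SE 0.28; adjusted p by edgeR = 0.0388). The other 4 tested genes of that list did not pass and went both ways. Lyl1 had a log2 fold change of -1.62 (SE 0.32), against 1.82 (SE 0.62) for Ptcra, 0.62 (SE 0.42) for Hes1 and 0.33 (SE 0.23) for Il2ra. Of 8 thymic stroma markers 3 were listed in vivo and 1, Epcam, was tested and did not pass. The 3 summed to 4.23 and 3.46 FPKM under the KO label, against 5.51 and 6.12 FPKM under the WT label. Most of that was Epcam, at 3.37 and 2.7 FPKM, against 4.71 and 5.32 FPKM. Col1a1, below the filter, went the other way at 0.589 and 0.543 FPKM, against 0.492 and 0.521 FPKM. In vitro Epcam rose (log2 fold change 0.74, SE 0.15). In vitro, 3 of the 14 myeloid markers and 2 of the 8 B cell markers were listed. None of those 3 reached the filter, and they summed to 1.26 and 0.527 FPKM in libraries labelled KO, against 0.844 and 0.54 FPKM in those labelled WT. The 2 B cell markers, Cd79a and Cd79b, of which Cd79a reached the filter only through the KO-labelled libraries, summed to 5.06 and 5.76 FPKM in libraries labelled KO, against 2.95 and 2.85 FPKM in those labelled WT. Of 5 tested regulatory T markers in vitro, 1 rose and 3 fell, and of 5 double-positive markers 2 rose and 2 fell. Of all genes tested 20.1% rose and 17.7% fell. Ikzf2 (-0.69, SE 0.11), Dntt (-1.01, SE 0.17), Cd8a (-0.42, SE 0.10) and the innate-like marker Nkg7 (-1.50, SE 0.12) fell. Cd4 (0.72, SE 0.09) and Cd8b1 (0.76, SE 0.21) rose. Lrrc32, among the falls, reached the filter only through the WT-labelled libraries. The part of these markers was not tested either. In bulk libraries fewer cells of a kind and less RNA per cell cannot be told apart.

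Whether the label's effect differed between the systems was tested directly over all 8 libraries. For 3 of the 10 genes it did, against 16.4% of the 9364 genes tested (adjusted p by edgeR under 0.05). Rel fell more in vitro than in vivo by 0.85 on the log2 scale (SE 0.22; adjusted p by edgeR = 0.0236), Nfkb2 by 0.78 (SE 0.19; adjusted p = 0.0208) and Nfkbie by 0.61 (SE 0.15; adjusted p = 0.0207). All 3 kept that sign without any single library, but the calls did not all hold. None of the 3 passed without in vitro WT replicate 1 (adjusted p of 0.0998, 0.0924 and 0.107) or without in vitro KO replicate 1 (0.0755, 0.0726 and 0.0815). Without in vitro WT replicate 2, Rel (0.0657) and Nfkb2 (0.0529) did not pass, nor did they without in vivo KO replicate 2 (0.0662 and 0.0633). Rel (0.0991) and Nfkbie (0.0528) did not pass without in vitro KO replicate 2, and Nfkbie (0.0858) did not without in vivo KO replicate 1. Nfkbid, with a difference of -0.51 (SE 0.21; adjusted p by edgeR = 0.114), missed the threshold. For Relb, Nfkb1, Nfkbia and Nfkbib, which had negative fold changes in both systems, differences of -0.30, -0.26, -0.15 and -0.16 were not past it (adjusted p from 0.278 to 0.615). Their in vitro falls are therefore not shown to differ from their in vivo values.

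The balance among subunits can be read within a library, where the scaling between libraries drops out. In vitro, Rela made up 29% and 27% of the summed FPKM of the 5 subunits in libraries labelled KO, against 19.6% and 18.9% in those labelled WT. Nfkb2 made up 21.3% and 25.2% under the KO label, against 29.4% and 29.9% under the WT label. The leading subunit transcript was thus Rela in both libraries labelled KO, by a narrow margin in KO replicate 2, and Nfkb2 in both labelled WT. The ratio of Nfkb2 to Rela FPKM was 0.735 and 0.933 in libraries labelled KO, against 1.5 and 1.59 in those labelled WT. That of Rel to Rela was 0.330 and 0.289, against 0.528 and 0.571 under the WT label. Nfkb1 kept 25.5% and 24.7% of the total under the KO label, against 24.1% and 24.9% under the WT label, which overlapped. In vivo, Rela led in all 4 libraries, with 44.7% and 39.7% in those labelled KO, against 42.1% and 37.9% in those labelled WT, and Nfkb2 had 17.5% and 19%, against 17.7% and 18.1%. Neither share separated the in vivo groups. The Relb share did, at 10.6% and 11% under the KO label, against 13.4% and 11.6% under the WT label, while those of Rel and Nfkb1 overlapped. These shares describe the same values as the fold changes and were not tested again.

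**Figure D3:**
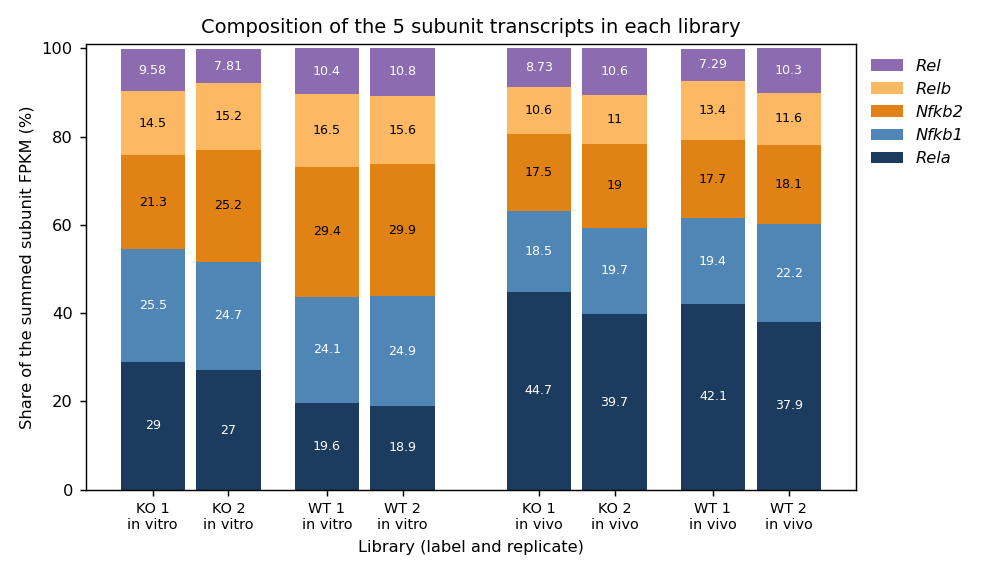
Share of each subunit in the summed FPKM of Rel, Relb, Nfkb2, Nfkb1 and Rela (top to bottom of each bar), in percent, for the 8 libraries. In vitro the Rela share is 29% and 27% under the KO label and 19.6% and 18.9% under the WT label, while in vivo the label does not separate it.

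Inhibitor transcripts fell along with the subunits in vitro. Summed FPKM of the 5 subunits was 139.8 and 159.2 in libraries labelled KO, against 218.8 and 208.7 in those labelled WT. The sum of the 5 inhibitors was 135.2 and 160, against 206.7 and 181.6 under the WT label. Their ratio, inhibitors over subunits, was 0.967 and 1.01 in libraries labelled KO, against 0.945 and 0.870 in those labelled WT, a small shift without overlap. Within the inhibitors, Tnfaip3 relative to Nfkbia was 0.264 and 0.228 under the KO label, against 0.150 and 0.164 under the WT label. In vivo the ratio of inhibitors to subunits was 1.34 and 1.37 in libraries labelled KO, against 1.5 and 1.33 in those labelled WT, and it overlapped. Tnfaip3 relative to Nfkbia was higher under the KO label in vivo too, at 0.231 and 0.264, against 0.203 and 0.226. There KO replicate 1 and WT replicate 2 were nearly equal. Nfkbia relative to Rela was lower in vivo, at 1.42 and 1.62 under the KO label, against 1.89 and 1.78 under the WT label.

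Nfkbia was the most abundant of the 10 transcripts in every group, and FPKM, being per length, allows the others to be ranked as well. In vitro under the KO label it averaged 61.4 ± 7.03 FPKM (SD, n = 2), followed by Rela at 41.8 ± 1.71. Nfkb1, Nfkbid, Nfkb2 and Nfkbib came next, from 37.5 down to 27.3, and each neighbouring pair of these overlapped. Relb, Tnfaip3, Rel and Nfkbie came below them without overlap, at 22.3, 15.0, 12.9 and 7.42. The higher Relb library, at 24.3 FPKM, almost touched the lower Nfkbib library, at 24.5 FPKM. Under the WT label in vitro the order after Nfkbia (84.3 ± 6.62) was Nfkb2 (63.4 ± 1.29), Nfkb1 (52.4 ± 0.591), Nfkbid (50 ± 6.14) and Rela (41.1 ± 2.54). Of those neighbours only Nfkb1 and Nfkbid overlapped. Below came Nfkbib and Relb, which overlapped each other, and then Rel, Tnfaip3 and Nfkbie. Rela thus had rank 2 under the KO label and rank 5 under the WT label at nearly the same FPKM, with Nfkb2, Nfkb1 and Nfkbid below it under the KO label and above it under the WT label.

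In vivo the order of all 10 was the same in both groups. Under the KO label it ran from Nfkbia (90.2 ± 8.43 FPKM) through Rela (59.3 ± 0.253), Nfkbid (44.8 ± 7.59), Nfkb1 (27 ± 3.47) and Nfkb2 (25.8 ± 3.79) to Rel at the bottom (13.7 ± 3). Under the WT label the same genes had 111 ± 15.2, 60.5 ± 5.85, 42.8 ± 2.49, 31.4 ± 2.29, 27 ± 0.209 and 13.2 ± 2.88 FPKM (SD, n = 2 each). Nfkb1, Nfkb2, Tnfaip3 and Nfkbib were neighbours that overlapped under the KO label, as did Relb, Nfkbie and Rel. Set side by side across systems, Rel in the in vitro libraries labelled KO, at 12.9 FPKM, lay near its 13.7 and 13.2 FPKM in vivo, while its in vitro WT-labelled level was 22.6 FPKM. Nfkb2 at 35.0 FPKM in the in vitro libraries labelled KO lay between the 63.4 FPKM of those labelled WT and the in vivo means. Culture, cell source and sequencing provider all differ between the systems and cannot be told apart, so such level differences were not tested.

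The rest of the pathway is given by list, and each count in vitro stands beside the 20.1% of all genes tested that rose and the 17.7% that fell. Of 12 tested ubiquitin editors and partners of the Tnfaip3 product, none rose or fell in vitro (median log2 fold change 0.07). Of 10 tested genes of the IKK complex and the kinases above it, 1 rose and 2 fell (median 0.08), close to those shares. Ikbke, an IKK-related kinase of the innate response, had 39.3 and 39.7 FPKM in libraries labelled KO, against 23.2 and 25.7 FPKM in those labelled WT (0.72, SE 0.09). Map3k14, the kinase that starts the non-canonical arm, fell by 0.38 (SE 0.09) and Ikbkb, a catalytic subunit of IKK, by 0.23 (SE 0.08; adjusted p by edgeR = 0.0421).

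**Figure D4:**
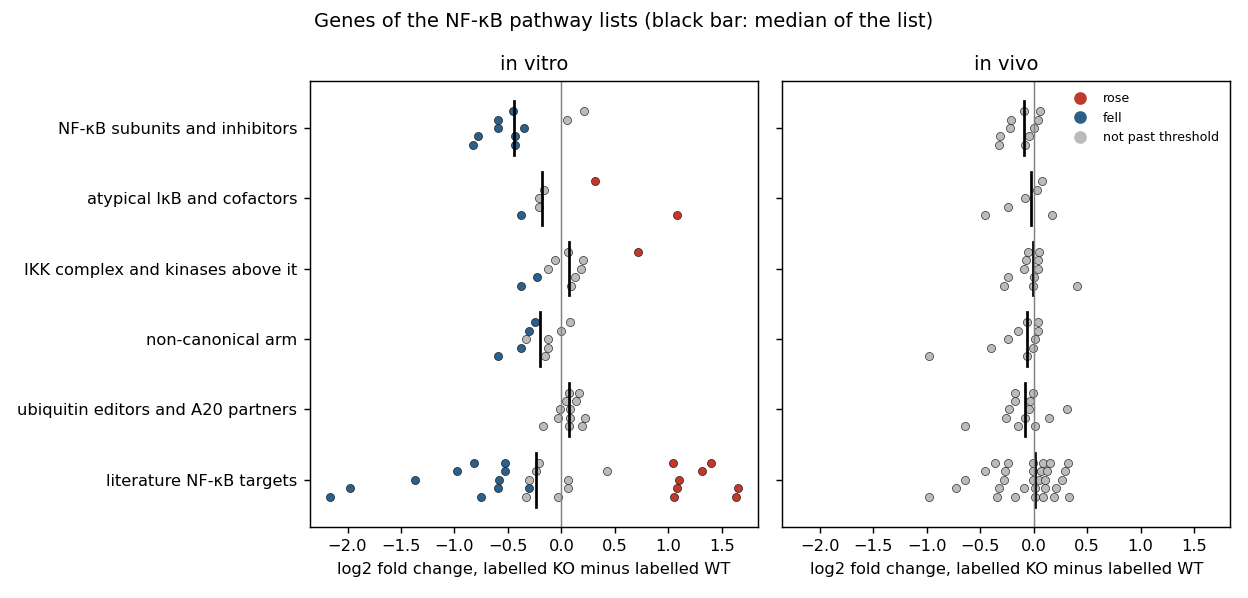
log2 fold changes, KO-labelled minus WT-labelled, of the tested genes of each pathway list, in vitro (left) and in vivo (right), with red for genes that rose, blue for those that fell and grey for those not past an adjusted p of 0.05. The list medians in vitro run from -0.44 for the 10 genes to 0.08, and no listed pathway gene passed in vivo.

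The non-canonical list, which shares Map3k14 and Chuk with the IKK list and Birc3, Tnfrsf4 and Tnfrsf9 with the targets listed below, had 4 falls and no rise among 10 tested genes in vitro (median -0.20), where 17.7% of all genes tested fell and 20.1% rose. Tnfrsf9, a costimulatory receptor of the TNF receptor family, had 154 and 155 FPKM in libraries labelled KO, against 259 and 216 FPKM in those labelled WT (log2 fold change -0.59, SE 0.10; adjusted p by edgeR = 0.00121). Map3k14, the ubiquitin ligase Birc3 (-0.30, SE 0.09) and the adaptor Traf3 (-0.25, SE 0.09) were the others. Among 6 tested atypical IκB genes and nuclear cofactors, 2 rose and 1 fell (median -0.18), where both the rises and the median include Bcl3. Bcl3, which encodes a nuclear IκB that pairs with the Nfkb1 and Nfkb2 products, had 1.30 and 1.81 FPKM in libraries labelled KO, against 0.757 and 0.742 FPKM in those labelled WT (log2 fold change 1.08, SE 0.26). It passed the low-value filter only through the KO-labelled libraries, so its call is not counted as support for a difference. Nkrf, a repressor at NF-κB sites, fell by 0.38 (SE 0.10), and Pdlim2, a nuclear ubiquitin ligase for RELA, rose by 0.31 (SE 0.10).

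Genes listed in the literature as NF-κB targets went both ways in vitro. Of 27 tested, 8 rose and 11 fell (median -0.24), where 20.1% of all genes tested rose and 17.7% fell. The rises include Bcl3 and Ccl4, which reached the low-value filter only through the KO-labelled libraries. The falls include Bcl2a1b, which reached it only through the WT-labelled ones (0.69 and 0.451 FPKM under the KO label, against 1.53 and 1.42). These calls are not counted as support for a difference. The chemokine gene Xcl1 had 121 and 154 FPKM in libraries labelled KO, against 648 and 606 FPKM in those labelled WT (log2 fold change -2.16, SE 0.11; adjusted p by edgeR = 7.55e-07). Il2ra, the inducible chain of the interleukin-2 receptor, had 1.07 and 1.29 FPKM under the KO label, against 4.86 and 4.67 FPKM under the WT label (-1.98, SE 0.14). In the other direction Ccr7, a chemokine receptor of mature T cells, had 21.5 and 25.5 FPKM in libraries labelled KO, against 6.23 and 9.22 FPKM in those labelled WT (1.65, SE 0.16). Ccl4, another chemokine gene, was low throughout, at 1.45 and 1.74 FPKM in libraries labelled KO, against 0.568 and 0.464 FPKM in those labelled WT. It reached the filter only through the KO-labelled libraries, with 5 to 25 counts per library. In vivo, no gene of any of these 5 lists passed, with medians from -0.08 to 0.01 beside -0.08 for the 10 subunit and inhibitor genes.

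The genes whose profile was most like that of Nfkb2, the member that fell most in vitro, were found by the mean absolute difference in log2(FPKM + 1) over the 8 libraries, after centring each system on its own mean. Among 9363 other genes they were Pfkfb3, a regulator of glycolysis (mean difference 0.0691), Ergic1 (0.0737), Irf4, a transcription factor induced by antigen receptor signals (0.0778), Foxp4 (0.0783) and Zfp202 (0.0789). Their log2 fold changes ran from -0.97 for Zfp202 to -0.63 for Foxp4 in vitro, where all 5 fell, and from -0.07 for Pfkfb3 to 0.13 for Irf4 in vivo, where none passed. For Relb, the gene with the largest in vivo fold change of the 10 though not past the threshold, the nearest was Nfkbia (0.0443), followed by Tmem41a (0.0483), Zc3h12a (0.0496), Sik1 (0.0522) and Wdr74 (0.0581). Those 5 also fell in vitro, by 0.43 to 0.70 on the log2 scale, and had in vivo fold changes between -0.31 and -0.23 that did not pass. The libraries are the same for all these genes, so likeness here is a description of profiles.

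Some reads may be shared with neighbours. Of the 4584 annotated exonic bases of Nfkb2, which lies on chromosome 19 from 46304320 to 46312385, 299 also belong to exons of Psd and 531 to those of the noncoding AC114539.1, both on the opposite strand. AC114539.1 was not listed. Psd had 2585 counts in all 4 in vitro libraries together, against 18168 for Nfkb2. Of the 2169 exonic bases of Nfkbib, on chromosome 7 from 28758251 to 28767512, 314 are shared with Ccer2, which was not listed, and 42 with Sirt2, both on the opposite strand. Sirt2 had 9640 counts in vitro, against 5494 for Nfkbib. The strand setting is not given in the sources used here, so reads in those bases cannot be assigned with certainty. The other 8 genes share no exonic bases with another annotated gene. On GRCm38 they are Rela on chromosome 19 (5637483 to 5648130), Rel on chromosome 11 (23736847 to 23770970), Relb and Nfkbid on chromosome 7 (19606217 to 19629438 and 30421732 to 30428746) and Nfkb1 on chromosome 3 (135584655 to 135691547). Nfkbia lies on chromosome 12 (55489410 to 55492647), Nfkbie on chromosome 17 (45555703 to 45563169) and Tnfaip3 on chromosome 10 (19000910 to 19015657).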

How the data were processed

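Total RNA from sorted mouse thymocytes was sequenced as 8 libraries, with 2 in each of 4 groups taken from the labels. Per the labels' protocols, the in vivo libraries were made and sequenced by BGI Genomics and the in vitro ones by Novogene, so system and provider cannot be told apart. Each library's deposited table gives the authors' counts per gene, which are whole numbers, and FPKM values, both named so per the file headers; the ratio of FPKM to count for a gene was nearly the same in both systems after scaling, so the gene lengths were shared. For tools, the submitters' processing notes give Bowtie2, RSEM, featureCounts of Subread, DESeq2 and Trim Galore 0.4.4, and for the build mm10, without roles or order. Annotation and strand setting are unstated.

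The main test was the quasi-likelihood test of edgeR 4.0.16 (R 4.3.3) on the deposited counts, with TMM normalization, within the 4 libraries of each system. A gene was tested where 2 or more libraries reached an FPKM of 1, and p-values were adjusted by Benjamini-Hochberg over all of them, with a threshold of 0.05. The difference between systems was a contrast over 8 libraries. The procedure was tested on simulated data. Alternatives were DESeq2 1.42.0, limma 3.58.1 on log2(FPKM + 1) and log2(FPKM + 0.1), other scalings and filters, a block for the replicate number and the removal of single libraries in turn.

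The members and lists were chosen with earlier results of these data known. One pathway list is not reported here. The text names all 10 members, up to 4 genes past the threshold with the largest fold change per pathway list and system, and 5 genes most alike in profile to the member that changed most in each system. Replicates within a group differed by more than sampling noise and were all kept. Sequences are from RefSeq (GRCm38.p6, with entries for 8 of the 10 genes), and gene positions and exons from GENCODE on GRCm38.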

Additional observations from a re-analysis of the deposited data

Results flagged for a closer look

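For each named gene the effect of the KO label in vitro was tested against that in vivo. Those past an adjusted p of 0.05 by edgeR, as were 16.4% of all genes tested, are given here. Values are the in vitro minus the in vivo log2 fold change. Among the 10 subunit and inhibitor genes, 3 passed, with -0.85 for Rel, -0.78 for Nfkb2 and -0.61 for Nfkbie, each lost in at least 4 of the 8 fits that left out 1 library.

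The other genes below were named for their in vitro change, their likeness to Nfkb2 or their role as a marker, and a choice by the in vitro value favours a difference between systems. Their values are a description. Ikbke differed by 0.76, with 0.72 in vitro and -0.07 in vivo. Xcl1 differed by -2.34, with -2.16 in vitro and 0.15 in vivo, and Il2ra also by -2.34, with -1.98 in vitro and 0.33 in vivo. Bcl3 differed by 1.51, with 1.08 in vitro and -0.45 in vivo, and had reached the in vitro filter only through the KO-labelled libraries. The 5 genes most like Nfkb2 in profile differed by -0.86 (Pfkfb3), -0.73 (Ergic1), -0.98 (Irf4), -0.68 (Foxp4) and -0.97 (Zfp202). Bcl6 differed by 1.56, with 1.45 in vitro and -0.14 in vivo. Thy1 differed by 1.73, with 2.40 in vitro and 0.64 in vivo. Kit differed by 3.54, with 1.52 in vitro and -2.05 in vivo. The systems differ in culture, cell source and sequencing provider, which cannot be told apart.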

How the results depend on the processing

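Of the values recomputed for the 10 genes, 132 of 140 in vitro, 116 of 130 in vivo and 115 of 130 for the difference kept their direction and their side of the threshold. In vitro the number of the 10 called was 8, against 9 with an FPKM of at least 5 required (Tnfaip3 then rose), 7 with all 8 libraries in the fit (Nfkbib lost, adjusted p by edgeR 0.0745) and 6 to 8 without 1 library. In vivo it was 0 under every alternative run. The count of all genes called in vivo, 113, was unstable: 505 with DESeq2, 52 with the FPKM filter at 5, 68 and 75 with limma (pseudocounts of 1 and 0.1), 379 with all 8 libraries, and 7 to 279 without 1 library. The count for the difference, 1534, ran from 533 to 1816 without 1 library, and that of the 10 genes from 0 to 3. A lone library was assumed to vary like the other groups. The causes were not tested.

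The replicate numbers did not establish pairs: same-numbered deviations correlated at -0.305 in vitro and 0.459 in vivo, over 2 pairs each. With a replicate block, 3159 genes passed in vitro (8 of the 10) and 1078 in vivo (0 of the 10). The crossed pairing in vitro, chosen after seeing the data, called 4997 genes, 9 of the 10 among them.

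Some uncalled values near 0 changed sign. Nfkbie in vivo was 0.0028 with DESeq2 or its size factors, 0.0011 and 0.0009 with limma in the same order of pseudocounts, 0.0012 without a filter and 0.0179 with all 8 libraries. Without 1 library the in vivo log2 fold change ran from -0.1124 to 0.1051 for Nfkbie, -0.1903 to 0.2878 for Rel, -0.127 to 0.0677 for Rela, -0.2212 to 0.0615 for Nfkb2, -0.2787 to 0.0829 for Tnfaip3 and -0.1139 to 0.2157 for Nfkbid. Rela in vitro ran from -0.0075 to 0.1096, and the difference between systems from -0.0627 to 0.172 for Rela and -0.3163 to 0.0012 for Nfkbia.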
